A study of Mus musculus with 18 samples.

Results

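Chil3, Capg, Ccr2, Ly6c2, Cx3cr1, Csf1r and Gpnmb are 7 genes by which blood monocytes that enter a tissue, and the macrophages already in it, are often recognised. They were selected by name with earlier results of these arrays in view, and each was read from the probe sets that carry its symbol alone. Where a gene had several such probe sets, the brightest by its 18-array mean was to be taken, but each measured gene had 1, so that measured value chose nothing here. Of the 7 genes, 6 were measured, among 19937 genes with such a probe set. Ly6c2, a surface protein of inflammatory monocytes, is represented only by 2 probe sets that it shares with its close copy Ly6c1, so no value is given for it. Since the genes were proposed with the measurements known, their counts below are a description, and the adjusted p-values come from the fit over all probe sets.

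The study measured total RNA of the dura mater, the outer meningeal membrane, from 18 male mice aged 17 to 21 weeks, each on its own array, in 6 groups of 3. Its title asks how experimental stroke changes meningeal gene expression and how mast cells influence those changes. Wild-type mice were WBB6F1-Kit+/+, and mast cell-deficient mice were WBB6F1-KitW/W-v, which carry a pair of loss-of-function alleles of the receptor Kit. Engrafted mice were WBB6F1-KitW/W-v mice given an intravenous transfer of mast cells 8 to 10 weeks before, so their other cells still carried the Kit alleles. These alleles are known to affect blood formation and pigment cells as well as mast cells, which limits them as a model of mast cell loss alone. In each category 1 group was naive and 1 group had a stroke, a filament occlusion of the middle cerebral artery for 30 minutes with the dura taken 2 days later. No sham-operated group was analysed here, so surgery and stroke cannot be told apart. All mice were perfused through the heart before the dura was removed.

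Monocytes are made in the bone marrow and leave it through the chemokine receptor CCR2. In the mouse, monocytes rich in Ly6C and CCR2 enter inflamed tissue, while monocytes poor in Ly6C carry more CX3CR1, the receptor of the chemokine CX3CL1, and patrol vessels. The receptor CSF1R, whose ligands are CSF1 and IL34, keeps monocytes and tissue macrophages alive, and the dura holds a resident macrophage population throughout life. Chil3 encodes the chitinase-like protein Ym1, made by alternatively activated macrophages, by some monocytes and by neutrophils and their precursors. Capg encodes a protein that caps the ends of actin filaments in macrophages and other moving cells, and Gpnmb a membrane glycoprotein of lysosomes and melanosomes found in lipid-laden macrophages, osteoclasts and pigment cells.

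The start regions of the genes that changed most are shown here, each from 250 bases before the annotated start to 50 bases after it, as given by RefSeq on GRCm38.p6. Of the 7 genes, 6 matched an entry of this promoter table. The region of Chil3, whose gene spans chr3:106147554-106167564 on the minus strand, lies at chr3:106167515-106167814. The region of Capg, whose gene spans chr6:72538282-72562983 on the plus strand, lies at chr6:72549397-72549696, inside that span. The region of Gpnmb, whose gene spans chr6:49036518-49058182 on the plus strand, lies at chr6:49036268-49036567. Capitals mark a match to a searched motif.
Chil3: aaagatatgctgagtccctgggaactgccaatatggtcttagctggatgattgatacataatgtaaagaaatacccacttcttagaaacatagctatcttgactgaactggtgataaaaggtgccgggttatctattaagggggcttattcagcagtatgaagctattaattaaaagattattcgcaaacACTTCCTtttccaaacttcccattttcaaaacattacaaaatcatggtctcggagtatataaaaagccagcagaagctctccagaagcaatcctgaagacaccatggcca
Capg: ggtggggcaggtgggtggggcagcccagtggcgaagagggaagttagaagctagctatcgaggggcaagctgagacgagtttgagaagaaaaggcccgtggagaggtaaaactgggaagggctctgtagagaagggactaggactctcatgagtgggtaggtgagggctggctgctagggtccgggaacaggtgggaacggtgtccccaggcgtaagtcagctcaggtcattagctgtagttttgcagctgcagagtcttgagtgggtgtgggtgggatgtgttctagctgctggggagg
Gpnmb: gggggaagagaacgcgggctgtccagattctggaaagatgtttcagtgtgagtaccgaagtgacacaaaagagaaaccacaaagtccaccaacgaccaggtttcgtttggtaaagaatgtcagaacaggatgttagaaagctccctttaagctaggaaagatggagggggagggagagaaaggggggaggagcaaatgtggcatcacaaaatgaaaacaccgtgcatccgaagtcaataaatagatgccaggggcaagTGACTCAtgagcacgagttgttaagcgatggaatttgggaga
The motifs searched on both strands were AGGAAGT of the myeloid factor PU.1, TTGCNNAA of C/EBP factors, TCANGTG of the MITF and TFE factors and TGANTCA of AP-1. They were found in 9.35%, 10.8%, 14.3% and 7.81% of 32851 promoter entries of this length. In Chil3 the capitals are the reverse complement of the PU.1 motif, at bases -60 to -54 counted from a start base of 0. In Gpnmb they are the AP-1 motif TGACTCA, at bases 8 to 14. The letters searched were not present in the window of Capg. A match is a description of letters and no measurement of binding.

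The deposited values, which were already processed, had array medians of 7.77 to 7.91 and correlations of 0.985 to 0.995 within groups. The signal before processing was not examined. The labels were met by the mast cell genes Cpa3 and Mcpt4, at 5.40 to 5.94 on the 6 deficient arrays and 7.96 to 10.90 on the other 12. The resident macrophage marker Mrc1 was at 10.50 to 11.40 on all arrays. In 5 arrays Ttr, a gene of the choroid plexus, was at 9.03 to 10.17, and elsewhere at 13.03 to 13.78. These were wild-type stroke array 2, deficient naive arrays 1 and 3, deficient stroke array 2 and engrafted naive array 3. The part of choroid plexus RNA in the results on these genes was examined in 2 ways only. These arrays were left out, and choroid plexus and neuron marker levels were used as covariates. With the covariates, the differences of Chil3, Capg and Gpnmb averaged over the mouse categories kept a limma adjusted p under 0.05. In wild-type dura alone Capg kept it, while Chil3 and Gpnmb lost it. The mean neuron level was itself lower in wild-type stroke dura, at 9.57 beside 10.33 when naive. Leaving out the 5 arrays keeps 1 naive deficient array, array 2. Values that use this group without the 5 arrays rest on it, and the fit assumes that it varies like the other groups. Without them the stroke minus naive differences of Chil3, Capg and Gpnmb, averaged over the 3 mouse categories, were 2.17, 1.07 and -1.04 on the log2 scale (limma adjusted p = 0.000783, 1.36e-05 and 0.0027). Here limma is a linear model with moderated variances, and p-values are adjusted over all probe sets tested. In wild-type dura alone, the difference of Chil3 without them was 1.44 and missed the threshold (adjusted p = 0.0564), and that of Gpnmb was -1.82 (adjusted p = 0.00177).

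On these arrays Chil3, Capg, Ccr2 and Cx3cr1 were higher in the dura after stroke and Gpnmb was lower, when the stroke effect was averaged over the 3 mouse categories, while Csf1r passed the test in neither direction. Chil3 was 3.88-fold and Capg 2.03-fold higher, and Ccr2 and Cx3cr1 were 1.54-fold and 1.20-fold higher. Gpnmb was 2.08-fold lower. Capg also had a smaller rise in deficient than in wild-type dura, by a test of that difference whose call was kept in 5 of the 12 fits that left out 1 array. Its rise was 2.91-fold in wild-type, 1.67-fold in deficient and 1.73-fold in engrafted dura. In a bulk sample, fewer cells of a type and less RNA per cell cannot be told apart.

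In counts, 4 of the 6 measured genes were called higher and 1 lower in the averaged comparison, at an adjusted p under 0.05 from limma. Of all 21640 probe sets tested, 8.05% were called higher and 5.42% lower. In wild-type dura 2 genes were called higher and 1 lower, beside 6.24% and 4.63% of all probe sets. In deficient dura 1 gene was called higher and 0 lower, beside 0.125% in each direction. There 2 of the 6 had an unadjusted p under 0.05, beside 2918 of the 21640 probe sets. In engrafted dura 2 were called higher and 0 lower, beside 0.878% and 0.236%. Here 5 of the 6 had an unadjusted p under 0.05, beside 2353 of the 21640 probe sets. The 3 mouse categories share no arrays with each other in these comparisons. They do share 1 estimate of spread per probe set, taken over all 6 groups. The median log2 difference of the 6 genes was 0.43, 0.27 and 0.62 in wild-type, deficient and engrafted dura, beside 0.01, 0.04 and -0.01 for all probe sets.

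The same arrays can be read without a model. In wild-type dura, every stroke array lay above every naive array for Chil3, Capg and Ccr2 (3 genes) and below for Csf1r and Gpnmb (2 genes). Over all probe sets these shares were 15.8% and 14.2%. In deficient dura the stroke arrays lay above for Chil3 and Capg (2 genes) and below for 0 genes, beside 13.7% and 5.92%. In engrafted dura they lay above for Chil3, Capg, Ccr2 and Cx3cr1 (4 genes) and below for Gpnmb (1 gene), beside 8.89% and 7.6%. Such shares were not computed for arrays of different categories or for the order of the groups given below.

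**Figure D1:**
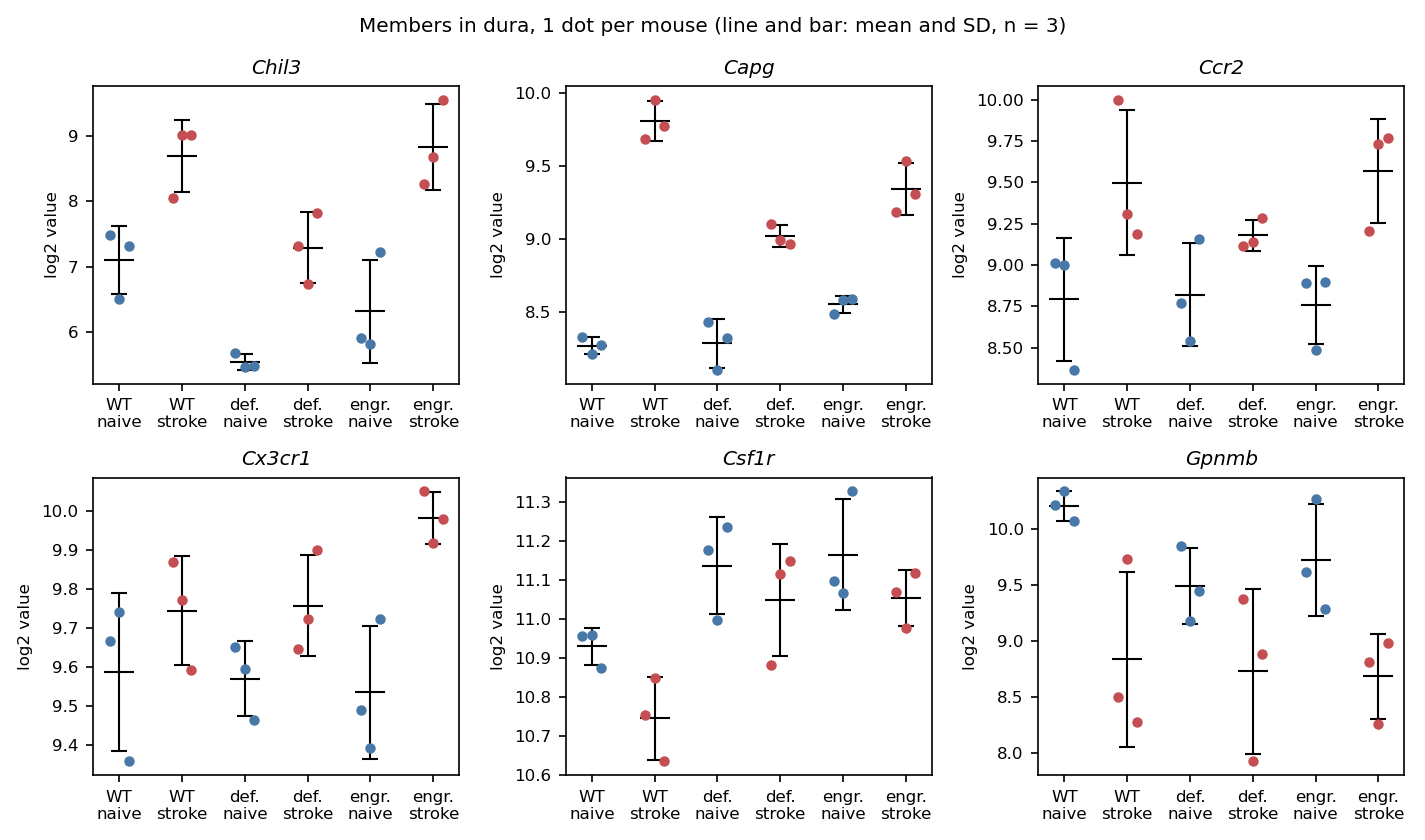
The log2 value of each of the 6 measured genes on every array, in panels by gene, with the 6 groups along the x axis (WT, wild type; def., mast cell-deficient; engr., engrafted; naive or stroke). Each dot is 1 mouse and the lines give the mean ± SD (n = 3); the stroke arrays of Chil3 and Capg lie above the naive arrays of the same category in all 3 categories.

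Of the receptors, Ccr2, which guides inflammatory monocytes out of the bone marrow, measured 9.01, 9.0 and 8.36 on the log2 scale in naive wild-type dura and 10.00, 9.31 and 9.19 after stroke. In deficient dura it measured 8.77, 8.54 and 9.15 when naive and 9.11, 9.14 and 9.29 after stroke. In engrafted dura it measured 8.89, 8.48 and 8.90 when naive and 9.20, 9.73 and 9.77 after stroke. The stroke arrays of Ccr2 lay above the naive arrays in wild-type and engrafted dura, and the groups overlapped in deficient dura, where the highest naive array exceeded 2 of the 3 stroke arrays. Averaged over the categories, Ccr2 rose by 0.63 ± 0.13 (SE, limma adjusted p = 0.00533). Within a category it did not pass, with differences of 0.71 ± 0.23 in wild-type, 0.36 ± 0.23 in deficient and 0.81 ± 0.23 in engrafted dura (adjusted p = 0.0609, 0.489 and 0.118). The wild-type difference passed in 2 of 10 other fits and in 0 of 6 that left out 1 array, with adjusted p from 0.0266 to 0.432. With choroid plexus and neuron marker levels as covariates the averaged difference was 0.48 and no longer passed (adjusted p = 0.0648, in a range of 0.00181 to 0.0648 over all alternatives). In order of their means, the 3 stroke groups of Ccr2 came first, at 9.57 ± 0.32 for engrafted, 9.5 ± 0.44 for wild-type and 9.18 ± 0.09 for deficient dura (SD, n = 3). The naive groups followed at 8.82 ± 0.31 for deficient, 8.79 ± 0.37 for wild-type and 8.76 ± 0.24 for engrafted dura. Each pair of neighbours in that order overlapped.

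Cx3cr1, the receptor of patrolling monocytes, microglia and many tissue macrophages, measured 9.67, 9.74 and 9.36 in naive wild-type dura and 9.87, 9.77 and 9.59 after stroke. In deficient dura it measured 9.65, 9.60 and 9.46 when naive and 9.65, 9.72 and 9.90 after stroke. In engrafted dura it measured 9.49, 9.39 and 9.72 when naive and 10.05, 9.92 and 9.98 after stroke. Of the 3 categories, engrafted dura alone had its naive and stroke arrays apart for Cx3cr1. The averaged difference was the smallest of the 4 that were called higher, 0.26 ± 0.06 (limma adjusted p = 0.0121). Within a category it was 0.16 ± 0.11, 0.19 ± 0.11 and 0.45 ± 0.11 in wild-type, deficient and engrafted dura (adjusted p = 0.401, 0.46 and 0.0669). The difference in response between engrafted and wild-type dura was 0.29 ± 0.16 (adjusted p = 0.428), with a 95% confidence interval of -0.04 to 0.63. Without the 5 arrays low in Ttr the averaged difference was 0.29 and missed the threshold (adjusted p = 0.0568, in a range of 0.00404 to 0.0568). The engrafted stroke group led the order at 9.98 ± 0.07 and stood apart from deficient stroke dura at 9.76 ± 0.13. Below it the groups overlapped, at 9.75 ± 0.14 for wild-type stroke, 9.59 ± 0.20, 9.57 ± 0.10 and 9.53 ± 0.17 for naive wild-type, deficient and engrafted dura.

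Csf1r, the growth factor receptor that monocytes and resident macrophages share, measured 10.96, 10.96 and 10.87 in naive wild-type dura and 10.75, 10.85 and 10.63 after stroke. In deficient dura it measured 11.18, 11.00 and 11.24 when naive and 10.88, 11.12 and 11.15 after stroke. In engrafted dura it measured 11.10, 11.07 and 11.33 when naive and 11.07, 10.98 and 11.12 after stroke. The 3 wild-type stroke arrays were the 3 lowest of the 18. Averaged over the categories the difference was -0.13 ± 0.05 (limma adjusted p = 0.129), with a 95% confidence interval of -0.24 to -0.02. This interval is not adjusted for the number of probe sets. Within wild-type, deficient and engrafted dura the upper limits of the intervals were 0.01, 0.11 and 0.08. In wild-type dura the difference was -0.19 ± 0.09, in deficient dura -0.09 ± 0.09 and in engrafted dura -0.11 ± 0.09 (adjusted p = 0.218, 0.665 and 0.728). In order, the means were 11.17 ± 0.14 for naive engrafted, 11.14 ± 0.13 for naive deficient, 11.06 ± 0.07 for engrafted stroke, 11.05 ± 0.14 for deficient stroke and 10.93 ± 0.05 for naive wild-type dura, with overlapping neighbours. Wild-type stroke dura stood apart from the last of these at 10.75 ± 0.11.

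Chil3, which encodes the chitinase-like protein Ym1, measured 7.49, 6.51 and 7.32 in naive wild-type dura and 8.06, 9.01 and 9.02 after stroke. In deficient dura it measured 5.68, 5.46 and 5.48 when naive and 7.32, 6.73 and 7.82 after stroke. In engrafted dura it measured 5.91, 5.82 and 7.23 when naive and 8.26, 8.69 and 9.56 after stroke. Every stroke array was above every naive array of its own category, but 1 deficient stroke array, at 6.73, was below 2 of the naive wild-type arrays. All 3 naive deficient arrays and 2 of the naive engrafted arrays were below the lower quartile of all probe sets on their array, which lay between 6.09 and 6.23, so a rise from there may be understated. Averaged over the categories Chil3 rose by 1.96 ± 0.24 (limma adjusted p = 6.55e-05). It rose by 1.60 ± 0.41 in wild-type and 2.52 ± 0.41 in engrafted dura (adjusted p = 0.0218 and 0.00872), and the difference in deficient dura, 1.75 ± 0.41, did not pass (adjusted p = 0.119). That value is larger than the one called in wild-type dura, and the difference between these 2 responses was 0.16 ± 0.58 (adjusted p = 0.984), with an interval of -1.09 to 1.40.

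The wild-type call for Chil3 depended on single arrays, and it was also lost with the choroid plexus and neuron covariates. It was lost without wild-type naive array 2, wild-type stroke array 2 or wild-type stroke array 3, where the difference ranged from 1.30 to 1.91 over the arrays left out and the adjusted p over all alternatives from 0.00875 to 0.0953. The engrafted call was lost without engrafted naive array 1 or 2, with adjusted p between 0.00368 and 0.117 over all alternatives. The averaged call held when each of the 18 arrays was left out in turn and in the other 9 fits. In order, Chil3 was highest in engrafted stroke dura at 8.84 ± 0.66 and wild-type stroke dura at 8.70 ± 0.55, which overlapped. Deficient stroke dura, at 7.29 ± 0.55, was apart from these and overlapped naive wild-type dura at 7.10 ± 0.52. Naive engrafted dura followed at 6.32 ± 0.79, and naive deficient dura was apart and lowest at 5.54 ± 0.12. Chil4, a close copy of Chil3, measured 4.20 to 4.79 on the 18 arrays, below the lower quartile of every array. Its averaged stroke difference was 0.24 ± 0.04 (limma adjusted p = 0.000413), at a signal too low to show expression. Cross-hybridisation between the 2 copies was not tested.

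Neutrophil markers moved with Chil3. Over the 18 arrays, the gene most like Chil3 by Pearson's r was Lcn2, an antimicrobial protein of neutrophil granules (0.96). Next came Ifitm6, which is in the infiltrating monocyte list read below (0.95), and Ly6g, a surface marker of mouse neutrophils (0.94). The arrays share their group structure, so these are descriptions and have no p. In the averaged comparison, 9 of 12 mature neutrophil markers and 9 of 11 granulocyte precursor markers were called higher and 0 lower, with medians of 0.66 and 0.88 beside 0.01 for all probe sets. At an unadjusted p under 0.05 the limma counts in either direction were 10 and 11, beside 5893 of all 21640 probe sets. The mean log2 level of the 12 neutrophil markers was 7.90 to 8.36 in naive wild-type, 7.26 to 7.55 in naive deficient and 7.61 to 8.38 in naive engrafted dura. After stroke it was 8.41 to 8.94, 7.90 to 8.10 and 8.31 to 9.18. As for Chil3, naive deficient dura was the lowest group and wild-type and engrafted stroke dura the pair with the highest means. None of the 12 markers was below the lower quartile on all 18 arrays. The defining markers S100a8, S100a9 and Ly6g each overlapped between naive and stroke arrays in wild-type dura. Their means there were 10.19, 10.00 and 8.31 when naive and 10.56, 10.29 and 8.72 after stroke. In deficient dura none of these markers overlapped, and in engrafted dura S100a9 alone did. The part of neutrophils in the Chil3 result was not tested.

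Capg, the actin-capping protein, measured 8.32, 8.21 and 8.27 in naive wild-type dura and 9.69, 9.96 and 9.78 after stroke. In deficient dura it measured 8.43, 8.10 and 8.32 when naive and 9.10, 8.99 and 8.97 after stroke. In engrafted dura it measured 8.48, 8.58 and 8.59 when naive and 9.18, 9.53 and 9.31 after stroke. All 9 stroke arrays lay above all 9 naive arrays for Capg, and the share of probe sets that did so was not computed. It rose by 1.54 ± 0.10 in wild-type, 0.74 ± 0.10 in deficient and 0.79 ± 0.10 in engrafted dura (limma adjusted p = 2.99e-07, 0.00718 and 0.00129), that is 2.91-fold, 1.67-fold and 1.73-fold. The deficient call was lost when only the 2 groups compared were in the fit, with adjusted p between 0.000361 and 0.179 over all alternatives. Averaged over the categories the rise was 1.02 ± 0.06 (adjusted p = 4.12e-08).

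The order of Capg was the most clearly separated of the 6 genes, with no share over all probe sets to set beside it. Wild-type stroke dura at 9.81 ± 0.14, engrafted stroke dura at 9.34 ± 0.18, deficient stroke dura at 9.02 ± 0.07 and naive engrafted dura at 8.55 ± 0.06 followed each other with no overlap of single arrays. Naive engrafted dura was also apart from naive deficient dura, at 8.28 ± 0.17, which overlapped naive wild-type dura at 8.27 ± 0.06. The genes most like Capg over the 18 arrays were Map2k3, a stress kinase (r = 0.98), Ppp1r14b (0.98) and Timp1, a metalloproteinase inhibitor (0.97).

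Gpnmb, the lysosomal glycoprotein of lipid-laden macrophages, went the other way. It measured 10.22, 10.34 and 10.07 in naive wild-type dura and 8.51, 9.73 and 8.28 after stroke. In deficient dura it measured 9.85, 9.18 and 9.45 when naive and 9.38, 7.93 and 8.88 after stroke. In engrafted dura it measured 9.62, 10.26 and 9.29 when naive and 8.82, 8.26 and 8.98 after stroke. The naive arrays lay above the stroke arrays in wild-type and engrafted dura and overlapped them in deficient dura, where 1 stroke array, at 9.38, exceeded 1 naive array. Averaged over the categories Gpnmb fell by 1.06 ± 0.22 on the log2 scale (limma adjusted p = 0.00497). It fell by 1.37 ± 0.38 in wild-type dura (adjusted p = 0.032), and the differences of -0.76 ± 0.38 and -1.04 ± 0.38 in deficient and engrafted dura did not pass (adjusted p = 0.399 and 0.278).

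The averaged call for Gpnmb held in all 18 fits that left out 1 array and in the other 9 fits. The wild-type call did not: it was lost without any of the 3 wild-type naive arrays, without wild-type stroke array 1 and without wild-type stroke array 3. With the choroid plexus and neuron covariates it was lost too. The wild-type difference ranged from -1.82 to -1.09 over the arrays left out, and its adjusted p from 0.00177 to 0.134 over all alternatives. In order, the means were 10.21 ± 0.13, 9.72 ± 0.50 and 9.49 ± 0.34 for naive wild-type, engrafted and deficient dura, then 8.84 ± 0.78, 8.73 ± 0.74 and 8.69 ± 0.38 for wild-type, deficient and engrafted stroke dura. Every pair of neighbours overlapped.

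The genes most like Gpnmb over the 18 arrays were Fads2b (r = 0.96), Sh2d6 (0.94) and Lrit1, a photoreceptor gene (0.94). Lrit1 is known from the retina, whose photoreceptor genes the pineal gland shares in part, and a pineal list was added after these values were seen. Of its 10 measured genes 0 were called in the averaged comparison by limma, 5 had an unadjusted p under 0.05, and the median was -0.23. The mean of the pineal genes was 10.12 to 10.19 in naive wild-type, 9.69 to 10.24 in naive deficient and 9.97 to 10.26 in naive engrafted dura. After stroke it was 9.68 to 10.19, 9.87 to 10.17 and 9.31 to 10.04. Of 10 melanocyte markers, 0 were called higher and 1 lower (Gpr143, at -0.27), and 3 had an unadjusted p under 0.05 by limma. The melanocyte marker Dct was not called, with means of 7.90 naive and 7.05 after stroke in wild-type dura. They were 7.33 and 7.20 in deficient, and 7.43 and 6.95 in engrafted dura. Means of Tyrp1 were also lower after stroke in each category, while that of Pmel was higher in deficient dura (7.20 and 7.35). Of 9 osteoclast markers 1 was called higher (Ocstamp, at 0.20) and 0 lower, and 1 had an unadjusted p under 0.05 by limma. By category, in wild-type dura 5 of 9 were called higher, with a median of 0.60, and the medians were -0.12 in deficient and -0.22 in engrafted dura, where 0 and 0 were called and 1 and 3 had an unadjusted p under 0.05. The 5 were Mmp9 (1.14), Atp6v0d2 (1.04), Acp5 (0.67), Ctsk (0.66) and Ocstamp (0.60). The part of pineal cells, pigment cells or osteoclasts in the Gpnmb result was not tested.

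**Figure D2:**
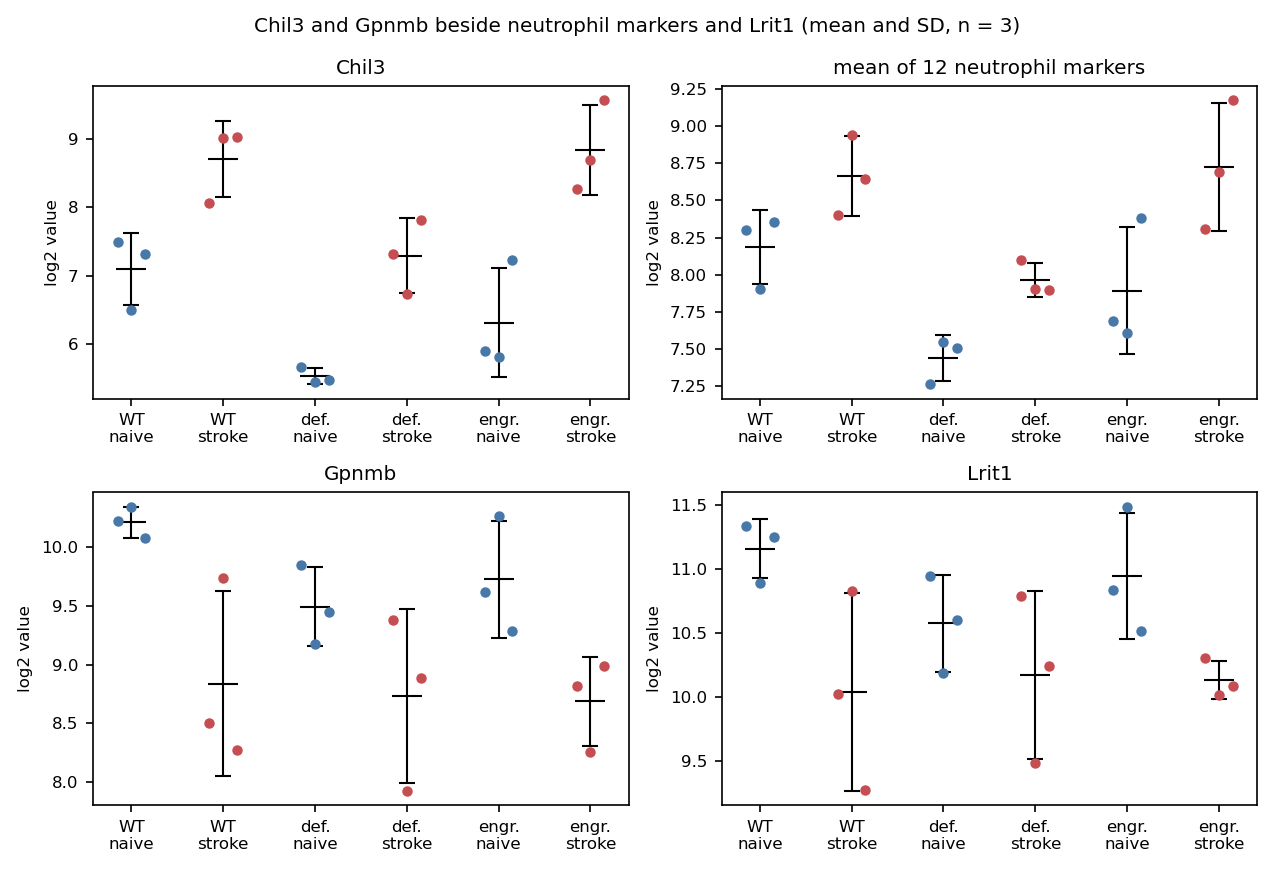
Log2 levels on the 18 arrays of Chil3, the mean of 12 neutrophil markers, Gpnmb and Lrit1 in separate panels, by group (WT, wild type; def., mast cell-deficient; engr., engrafted; naive or stroke), with 1 dot per mouse. The neutrophil mean is lowest in naive deficient dura, at 7.26 to 7.55, as is Chil3, at 5.46 to 5.68.

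Whether these genes reported infiltrating monocytes and macrophages here was not tested. They were chosen with earlier results in view, and genes that change with stroke correlate over naive and stroke arrays. Capg, Ccr2 and Chil3 rose and correlated with each other over the 18 arrays, with r of 0.82 between Capg and Chil3, 0.74 between Capg and Ccr2 and 0.67 between Ccr2 and Chil3. Csf1r correlated with these 3 at -0.50, -0.20 and -0.45 in the order Capg, Ccr2, Chil3, and Gpnmb at -0.61, -0.60 and -0.43. Cx3cr1 was most like Ccr2 among the measured genes (r = 0.75). All these pairs share the 18 arrays and the stroke contrast. The genes most like Chil3 and Capg are given above, and those of Chil3 included the neutrophil genes Lcn2 and Ly6g. The genes most like Ccr2 were Ctsc, a protease activator of leukocytes (0.93), Ms4a6c of monocytes (0.92) and Nckap1l, a regulator of actin in blood cells (0.91). Those most like Cx3cr1 were Cd180 of B cells and myeloid cells (0.89), Sardh (0.86) and Tmc4 (0.85). Those most like Csf1r were Plxna4 (0.92), Lrp4 (0.92) and Kctd12 (0.88).

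**Figure D3:**
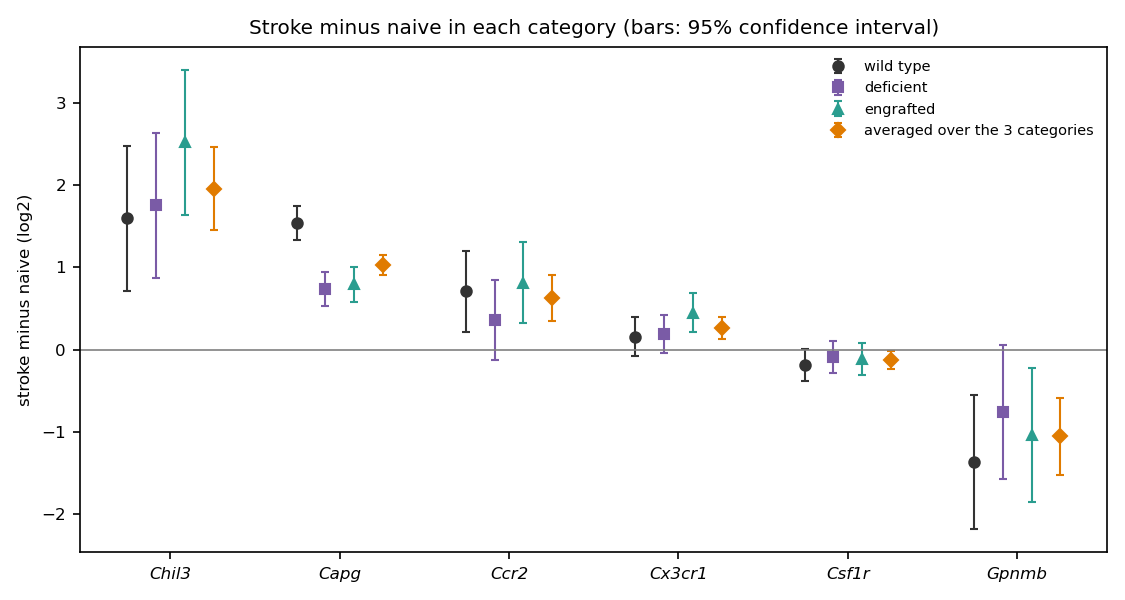
The stroke minus naive difference in log2 units for each of the 6 measured genes in wild-type, mast cell-deficient and engrafted dura and averaged over them. Points are limma estimates and bars their 95% confidence intervals; the averaged intervals of Chil3, Capg, Ccr2 and Cx3cr1 lie above 0, and those of Gpnmb and Csf1r below 0, where Csf1r did not pass after adjustment.

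Between mouse categories, the question was whether the genes differed with mast cell status before or after stroke. In naive dura 0 of the 6 genes were called in any of the 3 comparisons by limma. Of all probe sets 0.0185% were called between deficient and wild-type, 0.0185% between engrafted and deficient and 0% between engrafted and wild-type dura. At an unadjusted p under 0.05 there were 2, 1 and 2 of the 6 genes in these comparisons. Of all 21640 probe sets, 1476, 1016 and 4143 were under it. Chil3 was the gene furthest apart, 1.56 ± 0.41 lower on the log2 scale in naive deficient than naive wild-type dura (adjusted p = 0.424). Csf1r was 0.21 ± 0.09 higher in naive deficient and 0.23 ± 0.09 higher in naive engrafted than in naive wild-type dura (adjusted p = 0.715 and 0.196). Capg was 0.27 ± 0.10 higher in naive engrafted than in naive deficient and 0.28 ± 0.10 higher than in naive wild-type dura (adjusted p = 0.917 and 0.169).

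After stroke, Capg was 0.79 ± 0.10 lower on the log2 scale in deficient than in wild-type dura (limma adjusted p = 0.000416). It was the only 1 of the 6 genes called in that comparison, in which 1.97% of all probe sets were called lower. Chil3 was 1.41 ± 0.41 lower and Csf1r 0.30 ± 0.09 higher in deficient than in wild-type stroke dura, and neither passed (adjusted p = 0.0967 and 0.107). The Chil3 difference passed in 2 of 10 other fits, with a replicate block and with array weights, and in 0 of 6 that left out 1 array, with adjusted p from 0.019 to 0.42. The Csf1r difference passed in 1 of 10 other fits, with array weights. Of the 6 fits that left out 1 array it passed in 1, without deficient stroke array 1, at 0.39. Its adjusted p lay between 0.0148 and 0.403 over all alternatives. Between engrafted and deficient stroke dura 0 of the 6 genes were called, beside 0.0277% of all probe sets. At an unadjusted p under 0.05 there were 2 of the 6 genes, beside 1359 of the 21640 probe sets. These genes were Chil3, 1.55 ± 0.41 higher, and Capg, 0.32 ± 0.10 higher in engrafted dura (adjusted p = 0.568 and 0.727). Between engrafted and wild-type stroke dura 0 of the 6 genes were called, beside 0.411% of all probe sets. At an unadjusted p under 0.05 there were 3 of the 6 genes, beside 2502 of the 21640 probe sets. Capg was 0.47 ± 0.10 lower, Csf1r 0.31 ± 0.09 higher and Cx3cr1 0.24 ± 0.11 higher in engrafted dura (adjusted p = 0.055, 0.163 and 0.425). The Capg difference passed without engrafted stroke array 2, at -0.56, with adjusted p between 0.0141 and 0.471.

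The size of the stroke response itself was compared between categories as a difference of differences. For Capg the response was 0.80 ± 0.14 smaller on the log2 scale in deficient than in wild-type dura (limma adjusted p = 0.0191), with a 95% confidence interval of -1.10 to -0.51 for deficient minus wild type. It was the only gene of the 6 called, and 0.342% of all probe sets were called lower in that comparison. The call was lost without wild-type naive array 2 or 3, deficient naive array 1 or 3, wild-type stroke array 2, or deficient stroke array 2 or 3. The difference ranged from -0.89 to -0.73 over the arrays left out, and without the 5 arrays low in Ttr it was -0.53 and not called, but naive deficient dura is then 1 array, at 8.10. Its adjusted p ranged from 0.0012 to 0.465 over all alternatives, with 0.0502 where the replicate number was a block.

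Markers of other cells moved with category too. The mean log2 level of 11 cell cycle genes was 7.37 to 7.52 in naive wild-type and 7.27 to 7.51 in naive deficient dura, and 8.70 to 9.11 and 7.60 to 8.27 after stroke. The mean of 9 osteoclast genes was 8.27 to 8.52 and 8.82 to 9.12 in naive dura of these categories and 8.79 to 9.21 and 8.69 to 9.0 after stroke. For the same response difference as in Capg, 0 of 11 cell cycle genes and 1 of 9 osteoclast genes were called by limma. At an unadjusted p under 0.05 there were 10 and 7 of them, beside 1591 of all 21640 probe sets. The called one was Mmp9, a metalloproteinase also made by neutrophils, at -1.48 (adjusted p = 0.0414). The part of dividing cells or osteoclasts in the Capg result was not tested.

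Between engrafted and wild-type dura the Capg response differed by -0.75 ± 0.14 and missed the threshold (limma adjusted p = 0.058), with an interval of -1.04 to -0.45. It passed without wild-type stroke array 1 and without engrafted stroke array 2, in a range of 0.0201 to 0.37. Between engrafted and deficient dura the Capg responses differed by 0.05 ± 0.14 (adjusted p = 0.898), with an interval of -0.24 to 0.35. In these comparisons 0 of the 6 genes were called, beside 0.106% and 0.00462% of all probe sets. At an unadjusted p under 0.05 there were 1 and 0 of the 6 genes, beside 2855 and 2097 of the 21640 probe sets. For the other 5 genes the intervals of the response differences were wide. For Chil3, engrafted minus deficient was 0.77 ± 0.58 with an interval of -0.48 to 2.01, and for Gpnmb deficient minus wild type was 0.61 ± 0.54 with an interval of -0.54 to 1.76. For Ccr2 they were 0.45 ± 0.33 for engrafted minus deficient and -0.35 ± 0.33 for deficient minus wild type, with intervals of -0.24 to 1.14 and -1.04 to 0.34.

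Genes of the same pathways were then read from fixed lists, to set the 6 genes beside others with like roles. Among infiltrating monocyte genes, 17 of 26 measured were called higher and 1 lower in the averaged comparison, with a median of 0.31. Arg1, an arginase of activated macrophages, rose by 0.86 ± 0.07 (limma adjusted p = 9.12e-07), Vcan, a matrix proteoglycan of monocytes, by 0.81 and Msr1, a scavenger receptor, by 0.70 (adjusted p = 1.97e-05 and 5.65e-05). Thbs1, a platelet and monocyte adhesion protein, was the one that fell, by 0.69 (adjusted p = 4.72e-05). By category 12 were higher and 1 lower in wild-type, 0 and 1 in deficient and 6 and 1 in engrafted dura, and Thbs1 was the lower one each time. At an unadjusted p under 0.05 the counts in either direction were 17, 8 and 14. Arg1 was 2.26 higher in wild-type, 0.10 in deficient and 0.23 in engrafted dura. Without the 5 arrays low in Ttr 17 of the list were called in the averaged comparison, and with choroid plexus and neuron levels as covariates 14, beside 18.

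Among macrophage lysosome and lipid genes, the group to which Gpnmb is close in function, 9 of 21 measured were called higher and 1 lower, with a median of 0.17. Lgals3, a galectin of phagocytes, rose by 0.68 (limma adjusted p = 0.000137), Trem2, a lipid receptor of macrophages, by 0.33, Lipa, the lysosomal lipase, by 0.30 and Plin2, a lipid droplet protein, by 0.38 (adjusted p = 0.000751, 0.000408 and 0.00249). Apoe, a lipid carrier, was the one that fell, by 0.12 (adjusted p = 0.036). Gpnmb thus fell on arrays where these genes rose. By category 7 were higher and 1 lower in wild-type, 0 and 0 in deficient, and 1 and 0 in engrafted dura, where the one was Lipa, with 12, 5 and 5 in either direction at an unadjusted p under 0.05. Without the 5 arrays the averaged count was 7, and with the covariates 6, beside 10.

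Among ligands and growth factors of monocytes, 6 of 18 were called higher and 0 lower, with a median of 0.06, and 7 had an unadjusted p under 0.05 by limma. Ccl2, the main ligand of CCR2, rose by 0.75 (limma adjusted p = 0.000484), with differences of 1.86, 0.08 and 0.30 in wild-type, deficient and engrafted dura. Ccl3 rose by 0.64, and the receptor chains Csf2rb and Csf2ra by 0.58 and 0.23 (adjusted p = 0.000115, 0.000264 and 0.00113). The ligands of the other 2 receptors did not pass: Csf1 was at 0.14, Il34 at -0.07 and Cx3cl1 at -0.12 (adjusted p = 0.258, 0.539 and 0.455). In wild-type dura alone Il34 fell by 0.47 (adjusted p = 0.0153). By category 5 were higher and 1 lower in wild-type dura, and 0 in deficient and 0 in engrafted dura, where 2 and 4 had an unadjusted p under 0.05.

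Among myeloid transcription factors, 3 of 13 measured were called higher and 3 lower, with a median of 0.07. Spi1, which encodes PU.1, rose by 0.54, Bhlhe40 by 0.37 and Irf5, an interferon regulatory factor, by 0.20 (limma adjusted p = 0.000952, 0.00772 and 0.0272). Nr4a1, an early response factor that patrolling monocytes need, fell by 1.48, Maf, a factor of resident macrophages, by 0.25 and Klf4 by 0.34 (adjusted p = 1.46e-05, 0.00311 and 0.00829). Nr4a1 fell by 1.95 in wild-type and 1.5 in deficient dura and was at -1.0 in engrafted dura (adjusted p = 0.000214, 0.0245 and 0.0847). Among actin capping and gelsolin family genes, the relatives of Capg and other actin regulators, 6 of 15 were called higher and 0 lower, with a median of 0.09, and 8 had an unadjusted p under 0.05 by limma. Arpc1b rose by 0.51, Lcp1, an actin bundler of leukocytes, by 0.43, Pfn1 by 0.30 and Tmsb4x by 0.16 (adjusted p = 4.12e-06, 0.000834, 0.000252 and 0.0165). All 4 rises were smaller than the averaged Capg value of 1.02.

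Without the 5 arrays low in Ttr, the counts called were 5 of the ligand list (beside 6), 3 of the transcription factors (beside 6) and 3 of the actin genes (beside 6), and with the covariates 5, 4 and 4. The lists overlap in part with what other cells of the dura express.

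**Figure D4:**
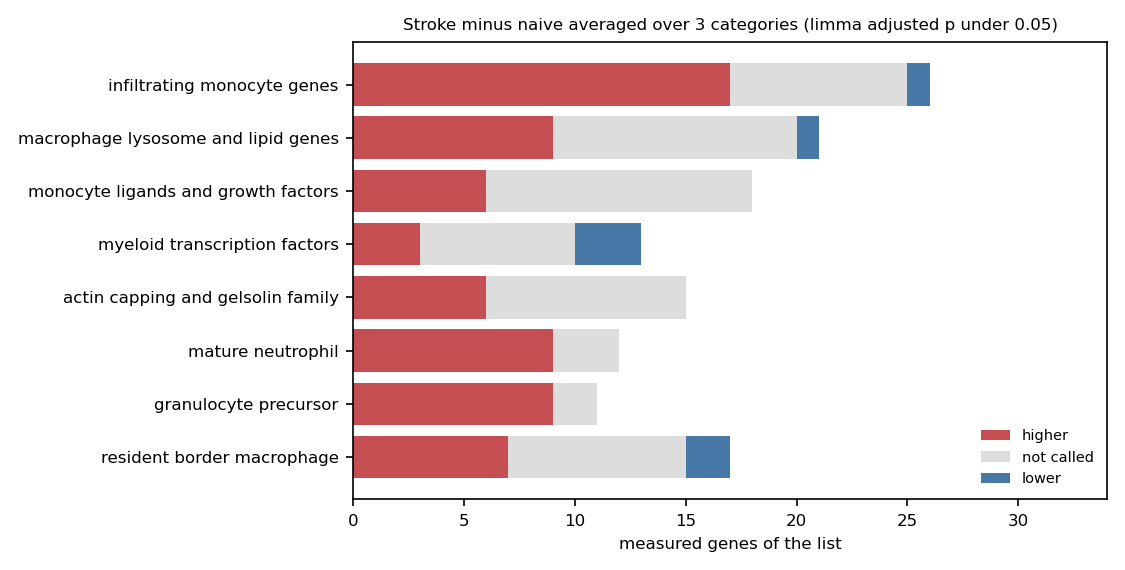
Number of measured genes of each list called higher, not called and called lower in the averaged stroke minus naive comparison (limma adjusted p under 0.05), as stacked bars. The infiltrating monocyte list has 17 higher and 1 lower, the granulocyte precursor list 9 higher and 0 lower, and the resident border macrophage list 7 higher and 2 lower.

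Of the markers of other cells, 7 of 17 resident border macrophage genes were called higher and 2 lower in the averaged comparison, with a median of 0.01. Vsig4, a complement receptor, rose by 1.49 and Lyve1, a hyaluronan receptor, by 0.55, while the lectins Clec10a and Mgl2 fell by 0.53 and 0.32 (limma adjusted p = 9.12e-07, 0.000741, 0.0104 and 0.0448). Their mean log2 level was 9.29 to 9.53, 9.31 to 9.73 and 9.39 to 9.66 in naive wild-type, deficient and engrafted dura and 9.42 to 9.59, 9.66 to 9.67 and 9.71 to 9.75 after stroke. Of 9 microglia genes 2 were higher (Tmem119 and Selplg) and 2 lower (Siglech and Olfml3). Of 10 dendritic cell genes 0 were higher and 5 lower, with a median of -0.25, and 7 had an unadjusted p under 0.05 by limma. The 5 were Cd209a, Clec9a and the antigen presentation genes H2-Aa, H2-Ab1 and Cd74, at -0.73 to -0.39. Of 11 cell cycle genes, all 11 were higher, with a median of 1.06. Of 10 neuron genes 0 were higher and 6 lower, and of 10 choroid plexus genes 0 were called and 0 had an unadjusted p under 0.05. By category, the neuron genes Snap25, Nefl, Gad1 and Syn1 were called lower in wild-type dura, and none in deficient or engrafted dura. The mean neuron level was 9.31 to 9.75 in wild-type stroke dura, beside 10.13 to 10.63 when naive. It was 9.76 to 10.40 in deficient and 9.98 to 10.61 in engrafted stroke dura. Whether any of these cell types accounts for a part of the 6 genes' values was not tested.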

How the data were processed

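The deposited table holds 1 log2 value per probe set and array, made by the authors from Affymetrix arrays. RMA, affy and R 3.0.0 are named per the submitters' processing notes, without their roles. No scan date or batch was given. Of 34760 probe sets, 21640 with exactly 1 gene symbol in the platform annotation were tested; 1321 with several symbols and 11799 not annotated were left out. No value was rescaled or filtered.

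The model, with 1 mean for each group, used all 18 arrays (lmFit and eBayes of limma 3.58.1, R 4.3.3; 12 residual degrees of freedom), and p-values were adjusted by Benjamini-Hochberg over the 21640 probe sets within each of 13 comparisons (threshold 0.05). Precision is limited by the number of arrays, with a median SE of 0.096 for 3 arrays against 3. Where nothing differs, 1082 probe sets are expected at an unadjusted p under 0.05. Found were 5893 for the averaged stroke difference, and 5622, 2918 and 2353 within wild-type, deficient and engrafted dura. The fit was tested on simulated data. Python 3.11.15 with pandas 2.3.3 prepared the tables, and matplotlib 3.10.9 drew the plots.

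The members and the gene lists were chosen with earlier results of these data known, so no list is independent support. Named genes are the members, up to 4 genes per pathway list with the smallest averaged p, the leading markers, Ttr and the 3 genes most correlated with each member. The pineal list, Chil4 and any other gene were named after their values were seen. Alternatives tried were other arrays, blocks, normalizations, filters, variance models, weights and covariates. Whether same-numbered arrays are paired was checked: their deviations correlated at -0.392 to 0.603 within categories, and 4 of 18 arrays were most like one with their own number, so they were not treated as pairs.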

Additional observations from a re-analysis of the deposited data

Results flagged for a closer look

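The stroke response of Capg differed between 2 mouse categories by a test of the difference itself. It was smaller in deficient than in wild-type dura, at -0.80 on the log2 scale for deficient minus wild type (limma adjusted p = 0.0191). The call was kept in 5 of the 12 fits that left out 1 array and in 8 of 10 others, and it was lost with a replicate block (0.0502) and without the 5 arrays low in Ttr (0.465), where naive deficient dura is 1 array. Its adjusted p ranged from 0.0012 to 0.465. In both categories the 3 stroke arrays lay above the 3 naive arrays, so the difference is one of size and not of direction. Engrafted dura had a Capg rise of 0.79, beside 0.74 in deficient dura. Its response differed from the deficient one by 0.05 ± 0.14 and from the wild-type one by -0.75 ± 0.14 (limma adjusted p = 0.898 and 0.058).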

How the results depend on the processing

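Averaged over the categories, 5 of the 6 genes were called; leaving out each array kept 5, and the other 9 fits gave 4 or 5. Within categories the counts moved more. Wild-type dura, with 3 called, had 1 with choroid plexus and neuron covariates and 1 to 2 when an array was left out. Deficient dura, with 1, had 0 when only the compared groups were fitted and 3 with array weights. Engrafted dura, with 2, had 1 with only the compared groups and 1 to 3 when an array was left out. Deficient against wild type after stroke, with 1, had 2 with a replicate block, 3 with array weights and 1 to 2 when an array was left out. Engrafted against wild type after stroke, with 0, had 1 with a second quantile normalization, 1 with array weights and 0 to 1 when an array was left out. For the response difference of deficient and wild-type dura, with 1, the replicate block gave 0, leaving out the 5 arrays low in Ttr 0, and leaving out 1 array 0 to 1. For engrafted and wild-type dura, with 0, a second quantile normalization and array weights each gave 1, and leaving out 1 array 0 to 1. The replicate block moved the Capg response difference to an adjusted p of 0.0502; the numbers mark no shared animal.

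Leaving out the 5 arrays reduces naive deficient dura to array 2, assumed to vary like the other groups, so the next values rest on 1 array. Csf1r in deficient dura was 0.018 in place of -0.09 without the 5 arrays. The Capg response of engrafted minus deficient dura, 0.05, was -0.12 without them and -0.041 to 0.15 when an array was left out. Both were uncalled. Gpnmb in deficient dura was -0.04 without the 5 arrays, against that 1 naive array, and with all 18 arrays it was -1.42, past the threshold, with array weights. With a minimum change of 1.5-fold the averaged counts were 9 of the monocyte list (beside 18), 1 of the lysosome list (beside 10), 1 of the transcription factors (beside 6) and 0 of the actin genes (beside 6), since their changes are small. The mean of several probe sets could not differ, as each member had 1. Signal limits Chil3 in naive deficient dura, below the lower quartile on all 3 arrays.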
